A study of Mus musculus with 10 samples.

Results

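The genes described here encode 9 proteins of DNA replication and proliferation: the 6 subunits of the replicative helicase (Mcm2, Mcm3, Mcm4, Mcm5, Mcm6 and Mcm7), its cofactor Cdc45, the sliding clamp Pcna and the proliferation antigen Mki67. They were taken by symbol from a table of 10735 protein-coding genes, and all 9 were expressed well above the filter on low values. RNA was sequenced from cultures of B16-F1, a melanoma line of C57Bl/6 mice, in 5 libraries of the wild type (WT) and 5 of B16-F1ΔFOXC2, a derivative without the forkhead protein FOXC2 according to its labels. The labels give no treatment, and all cultures were harvested after 24 h in RPMI-1640 with 10% serum, at about 90% confluence and passages 5 to 10. The labels do not say whether ΔFOXC2 is 1 clone, so the comparison includes any other difference between the 2 lines, and p-values measure the spread between cultures of each. Foxc2 itself was not analysed here, and the genotypes stand as labelled.

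The MCM proteins form a ring with 1 copy of each subunit. It is loaded onto origins in G1, and in S phase binds Cdc45 and the GINS complex to become the active helicase (CMG) that unwinds DNA ahead of the polymerases. Pcna encircles DNA behind the fork and tethers polymerases, and Mki67 (Ki-67) coats mitotic chromosomes and is used in pathology, melanoma included, to count cycling cells. Transcription of most of these genes rises towards S phase under E2F factors, while Mki67 peaks later in the cycle.

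Values are FPKM, the authors' fragment counts scaled to transcript length and to the mapped fragments of the library, so levels of different genes can be set side by side. The FPKM sum of a library was 240441 to 251273. The cells had the markers of their labelled lineage: 7 of 7 melanocyte markers had values, summing to 3184 to 3651 FPKM in the WT and 3821 to 4215 in ΔFOXC2 libraries. Of the markers of other cells, 1 of 6 for fibroblasts had values (Col1a2, 0.581 to 0.931 FPKM), and none of 6 for leukocytes or 4 for endothelium was in the analysis. Differences are WT minus ΔFOXC2 on log2(FPKM + 0.1), tested with limma over 10570 genes. The words rose and fell, always of the WT, mark genes whose p, adjusted by Benjamini-Hochberg over all genes tested, did not exceed 0.05. No minimum fold was set for this call, a choice made with it known that the 9 genes differed by less than 1.5-fold, and counts at 1.5-fold stand beside it.

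Of the 9 genes, 4 rose in the WT (Mcm5, Mcm7, Pcna and Mki67), none fell and 5 were not called by limma. Across all genes tested, 41.6% were called by the same rule, 20.8% as higher and 20.7% as lower. With 1.5-fold added, 0 of the 9 were called, against 8.62% of all genes, 3.65% higher and 4.97% lower. At an unadjusted p of at most 0.05 the same number, 4 of 9, passed, against 49.4% of all genes. The median difference of the 9 was 0.07, and that of all genes 0.01. The 2 groups of libraries did not overlap for Mcm5 and Mcm7, 2 of 9 genes, both higher in the WT. Among all genes 30% did not overlap, 14.9% higher and 15.1% lower. In bulk RNA, fewer cells in a cycle phase and less RNA per cell cannot be told apart.

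**Figure D1:**
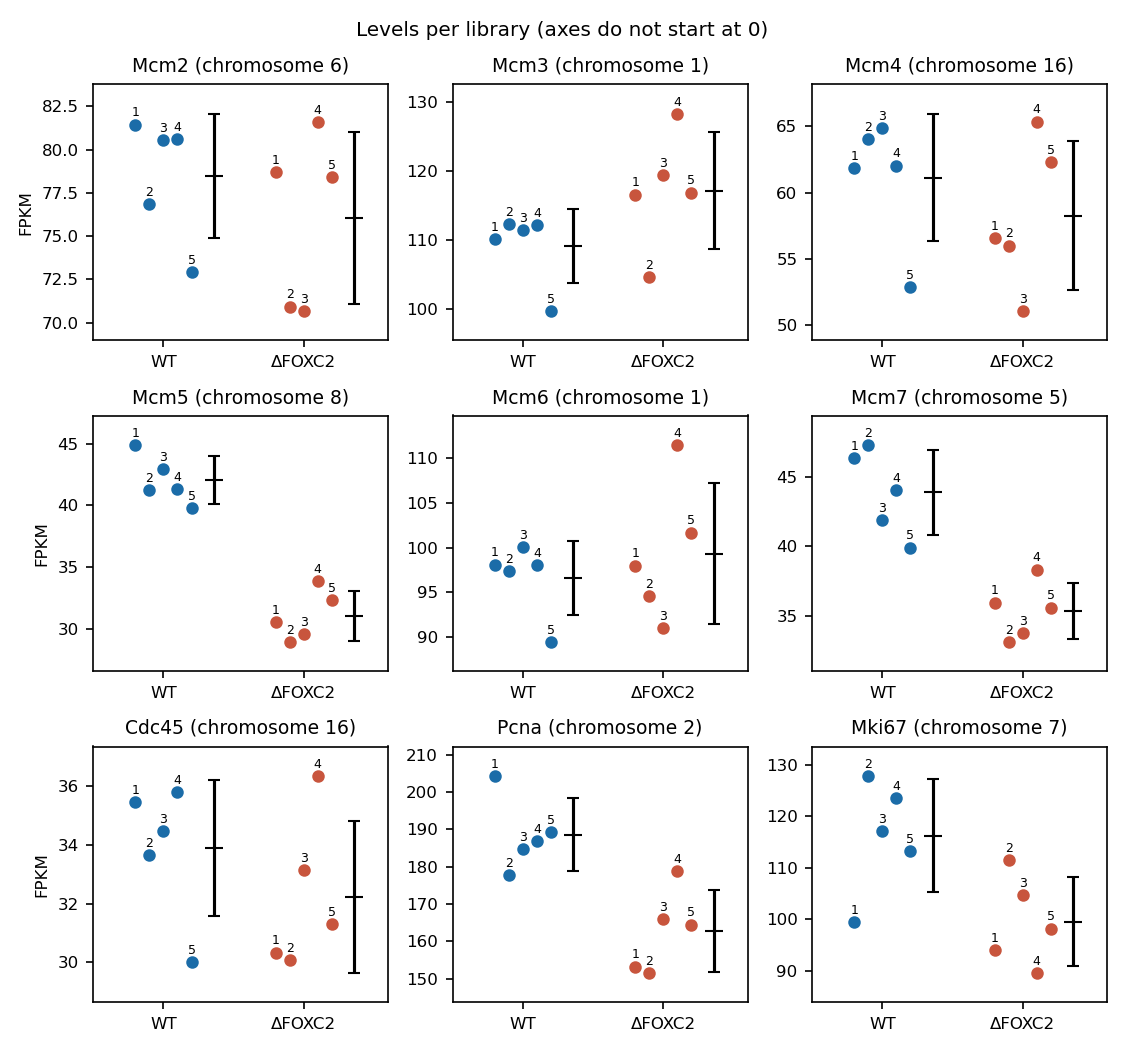
FPKM of each of the 9 genes (vertical axes, not starting at 0) in WT (blue) and ΔFOXC2 (red) libraries, with the replicate number beside each point and the mean ± SD (n = 5) in black. WT libraries lie above all ΔFOXC2 libraries for Mcm5 and Mcm7 only, and the 2 groups overlap for the other 7 genes.

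The helicase subunits did not move as a unit. Mcm5 and Mcm7 rose in the WT, Mcm2 and Mcm4 differed by less than the spread between libraries, and Mcm3 and Mcm6 were slightly lower in the WT without being called. The 6 differences ran from -0.10 to 0.44 around a median of 0.06, and 4 of 6 were above 0. A one-sided shift was thus not seen across the complex.

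Mcm5 (ENSMUSG00000005410.6, GRCm38 chromosome 8, 75109569 to 75128439, plus strand), which sits beside Mcm2 at the gate through which the ring opens, had 44.9, 41.2, 43.0, 41.3 and 39.8 FPKM in the 5 WT libraries and 30.5, 28.9, 29.5, 33.8 and 32.3 in the ΔFOXC2 libraries. The lowest WT library was above the highest ΔFOXC2 library. The log2 difference was 0.44 (SE 0.05, 95% interval 0.33 to 0.55, limma adjusted p = 4.274e-05), a fold of 1.36, and it was still called when any 1 of the 10 libraries was left out (0.41 to 0.47).

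Mcm7 (ENSMUSG00000029730.16, chromosome 5, 138164583 to 138172422, minus strand) contributes to the ATPase core of the ring. It had 46.3, 47.3, 41.9, 44.0 and 39.9 FPKM in the WT and 35.9, 33.1, 33.7, 38.3 and 35.6 in ΔFOXC2 libraries. The groups again did not overlap. The log2 difference was 0.31 (SE 0.06, 95% interval 0.19 to 0.43, limma adjusted p = 0.001001), a fold of 1.24, and remained called when any 1 library was left out (0.28 to 0.34). Mcm7 overlaps Cops6 and Ap4m1 on the opposite strand and contains Mir25, Mir93 and Mir106b on its own strand. Cops6 had a log2 difference of -0.05 (limma adjusted p = 0.344) and Ap4m1, at 3.89 ± 0.339 against 3.18 ± 0.304 FPKM (SD, n = 5), one of 0.28 (limma adjusted p = 0.0203). Cops6 ends at 138164646 and Ap4m1 starts at 138172002, so only the ends of Mcm7 overlap them. The libraries were strand-specific, but whether strand was used in counting is not given in the sources used here. The Mcm7 value is thus uncertain to the extent that reads are shared, which was not tested.

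Mcm3 (ENSMUSG00000041859.10, chromosome 1, 20802968 to 20820312, minus strand) was the subunit with the highest level. It had 110.1, 112.3, 111.4, 112.1 and 99.7 FPKM in the WT and 116.6, 104.6, 119.4, 128.3 and 116.9 in ΔFOXC2 libraries. Replicate 2 of ΔFOXC2 fell among the WT values, and the other 4 were above every WT library. The log2 difference was -0.10 (SE 0.05, 95% interval -0.22 to 0.02, limma adjusted p = 0.155). Without ΔFOXC2 replicate 2 it was -0.14 and passed the test (limma adjusted p = 0.0334), and without WT replicate 5 or ΔFOXC2 replicate 4 it was -0.07 in each case.

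Mcm6 (ENSMUSG00000026355.11, chromosome 1, 128331590 to 128359664, minus strand), a partner of Mcm2 and Mcm4 in the ring, had 98.1, 97.4, 100.04, 98.0 and 89.4 FPKM in the WT and 98.0, 94.6, 91.0, 111.5 and 101.7 in ΔFOXC2 libraries. The groups overlapped almost fully, with a log2 difference of -0.04 (95% interval -0.16 to 0.08, limma adjusted p = 0.605). Without ΔFOXC2 replicate 4 the value was 0.0044. Its sign therefore rests on that library.

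Mcm2 (ENSMUSG00000002870.8, chromosome 6, 88883474 to 88898780, minus strand) also binds histones at the fork. It had 81.45, 76.9, 80.5, 80.6 and 72.9 FPKM in the WT and 78.7, 70.9, 70.7, 81.6 and 78.4 in ΔFOXC2 libraries, a log2 difference of 0.05 (95% interval -0.06 to 0.15, limma adjusted p = 0.487). Mcm4 (ENSMUSG00000022673.4, chromosome 16, 15623897 to 15637400, minus strand), whose tail is a target of the kinase that fires origins, had 61.8, 64.0, 64.9, 62.0 and 52.9 FPKM in the WT and 56.5, 56.0, 51.1, 65.4 and 62.3 in ΔFOXC2 libraries, a log2 difference of 0.07 (95% interval -0.09 to 0.23, limma adjusted p = 0.468). For both genes the groups overlapped and the highest of the 10 libraries was ΔFOXC2 replicate 4. Leaving out 1 library gave 0.02 (without ΔFOXC2 replicate 2 or 3) to 0.07 (without WT replicate 5 or ΔFOXC2 replicate 4) for Mcm2, and 0.02 (without ΔFOXC2 replicate 3) to 0.12 (without WT replicate 5) for Mcm4, none of them called. The intervals leave room for a difference of up to 1.11-fold for Mcm2 and 1.17-fold for Mcm4, which is below the fold of Mcm5.

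Cdc45 (ENSMUSG00000000028.14, chromosome 16, 18780447 to 18811987, minus strand), the cofactor that joins the ring at firing had 35.5, 33.7, 34.5, 35.8 and 30.01 FPKM in the WT and 30.3, 30.1, 33.1, 36.3 and 31.3 in ΔFOXC2 libraries, with a log2 difference of 0.07 (95% interval -0.07 to 0.21, limma adjusted p = 0.388). The groups overlapped, and the value was 0.12 without WT replicate 5 or without ΔFOXC2 replicate 4 and 0.05 without ΔFOXC2 replicate 2, not called in any case. Cdc45 overlaps Ufd1 on the opposite strand, which had a log2 difference of -0.03 (limma adjusted p = 0.656).

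Promoter sequences are shown for the pair of subunits that rose, Mcm5 and Mcm7, and for the pair on chromosome 1 that did not, Mcm3 and Mcm6, so that the E2F motifs of subunits with unlike differences can be compared. They are RefSeq sequences of GRCm38.p6, from 250 bases before to 30 after the annotated start, written 5′ to 3′ on the strand of the gene, with matches to TTTCCCGC or TTTGGCGC on either strand in capitals. The window of Mcm5 is chr8:75109259-75109538 on the plus strand, and those of Mcm7, Mcm3 and Mcm6 are chr5:138171854-138172133, chr1:20820283-20820562 and chr1:128359676-128359955 on the minus strand.
Mcm5: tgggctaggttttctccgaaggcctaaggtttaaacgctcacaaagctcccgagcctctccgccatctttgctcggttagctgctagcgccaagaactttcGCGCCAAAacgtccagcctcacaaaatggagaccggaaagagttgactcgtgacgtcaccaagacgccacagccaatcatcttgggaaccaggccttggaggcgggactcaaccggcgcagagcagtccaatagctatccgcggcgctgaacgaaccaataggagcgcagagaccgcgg
Mcm7: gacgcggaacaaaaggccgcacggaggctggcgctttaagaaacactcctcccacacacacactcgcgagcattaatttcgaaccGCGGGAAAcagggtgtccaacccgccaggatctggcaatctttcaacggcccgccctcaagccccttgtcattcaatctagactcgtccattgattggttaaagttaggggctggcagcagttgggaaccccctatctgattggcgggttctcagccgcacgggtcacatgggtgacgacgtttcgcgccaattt
Mcm3: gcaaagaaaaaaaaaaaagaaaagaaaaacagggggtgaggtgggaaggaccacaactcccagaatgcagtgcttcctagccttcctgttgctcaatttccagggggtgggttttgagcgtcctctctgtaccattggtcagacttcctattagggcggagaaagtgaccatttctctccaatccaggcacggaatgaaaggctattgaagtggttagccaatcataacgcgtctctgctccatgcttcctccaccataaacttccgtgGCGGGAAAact
Mcm6: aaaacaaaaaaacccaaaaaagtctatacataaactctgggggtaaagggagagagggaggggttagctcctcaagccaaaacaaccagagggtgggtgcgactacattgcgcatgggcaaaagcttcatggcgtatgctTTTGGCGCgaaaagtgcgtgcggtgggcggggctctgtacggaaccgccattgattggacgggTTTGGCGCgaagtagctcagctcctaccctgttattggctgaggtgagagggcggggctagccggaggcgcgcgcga
RefSeq gave promoters for 8 of the 9 genes, 9 starts in all. These 4 genes held an E2F match and Mcm2, Cdc45, Pcna and Mki67 none, where 1.46% of 32851 mouse promoters of the same length held one. Counted from the start, the match began at -149 in Mcm5, at -165 in Mcm7, at -110 and -47 in Mcm6, and at 20 in Mcm3. A second start of Mcm7 in RefSeq had no match. Genes with and genes without a match thus both included some that rose and some that were not called. Only these exact letters were searched, and other forms of an E2F site were not. Whether E2F factors act on the differences was not tested. On either strand, CCAAT was found in all 8 genes (36.1% of all promoters), and TTTGAA or TTCGAA, the cell cycle homology region, in Mcm2, Mcm7, Cdc45 and Mki67 (18.4% of all promoters).

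The difference of Mcm5 was 0.44, and the median of its chromosome 0.36. Differences of Mcm7, Pcna and Mki67 were 0.31, 0.21 and 0.22, and the medians of their chromosomes 0.05, -0.02 and 0.03. Over the 578 tested genes of chromosome 8, where Mcm5 lies, the median difference was 0.36 and 89.6% were above 0. Over the 573 of chromosome 1, where Mcm3 and Mcm6 lie, the median was -0.26 and 11.2% were above 0. The medians of chromosomes 2, 5, 6, 7 and 16, which hold the other 6 genes, were between -0.02 and 0.05. Mcm5 lay within the middle 50% of its chromosome (0.19 to 0.50), and 201 of the 578 genes had a larger difference. Mcm3 and Mcm6 were above the upper quartile of theirs (-0.12), with 131 and 80 of 573 genes higher.

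Closer to the genes, the 10 tested genes on each side, a number chosen after values were seen, gave similar medians. Those around Mcm5 had a median of 0.28, with 19 of 20 above 0, those around Mcm3 a median of -0.26 with 3 of 20 above 0, and those around Mcm6 a median of -0.27 with 1 of 20 above 0. Around Mcm7 the median was -0.01, with 9 of 20 above 0. The genes stood above the median of their neighbours by 0.32 for Mcm7, 0.23 for Mcm6, 0.18 for Mki67 and 0.16 for Mcm5. The values were 0.15 for Mcm3, 0.15 for Pcna, 0.098 for Mcm4, 0.029 for Mcm2 and only 0.0005 for Cdc45.

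When the median of its chromosome was subtracted from every gene, the subunits came closer together. The difference of Mcm5 fell to 0.08 and was no longer called (limma adjusted p = 0.276), Mcm3 turned to 0.16 and Mcm6 to 0.22, both now called higher in the WT (limma adjusted p = 0.0394 and 0.00793), and Mcm7 kept 0.26 (limma adjusted p = 0.00341). All 9 genes were then above 0, and the 6 subunits spanned 0.02 to 0.26, a range of 0.25 in place of 0.54. By its nature the subtraction leaves as many genes of a chromosome above 0 as below it. Mcm2 (0.02, limma adjusted p = 0.84), Mcm4 (0.05, limma adjusted p = 0.66) and Cdc45 (0.05, limma adjusted p = 0.60) were near 0 and not called. With the subtraction, 16.5% of all genes were called higher and 19.1% lower, against 4 of 9 and 0 of 9 here. The subtraction takes the chromosome median as known without error. Whether a chromosome-wide shift acts on these genes was not tested.

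**Figure D2:**
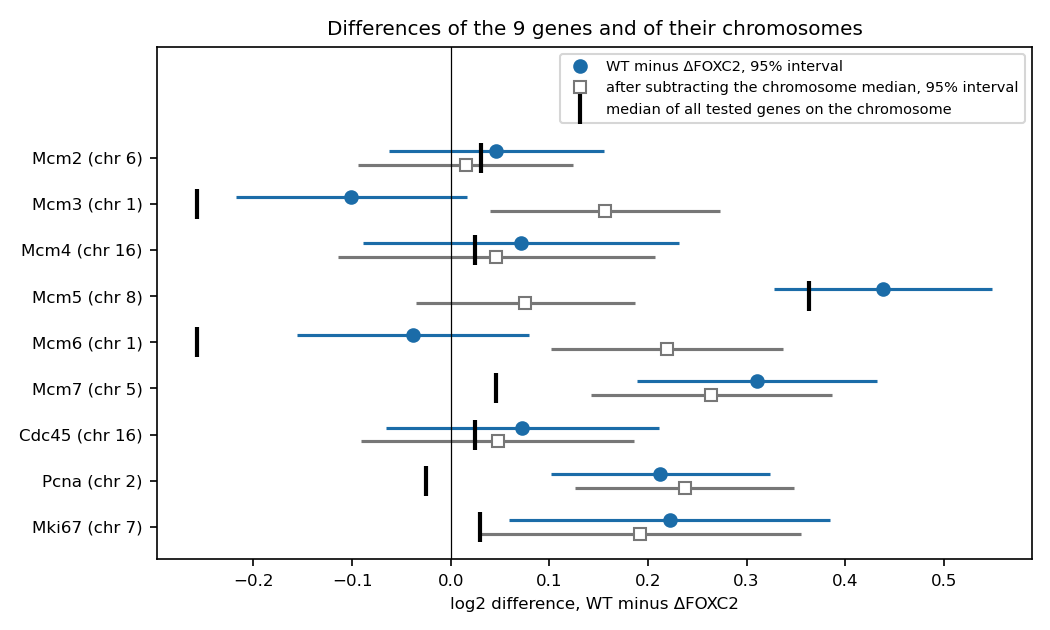
Log2 difference (horizontal axis, WT minus ΔFOXC2) of the 9 genes as measured (blue) and after subtracting the median of all tested genes on the same chromosome (grey squares), with 95% intervals from limma; black ticks mark the chromosome medians. Mcm5 at 0.44 lies close to the median of chromosome 8 at 0.36, and Mcm3 and Mcm6 move from below to above 0.

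The proportions of the subunit mRNAs differed between the lines, described here without a test. Within a library, Mcm5 made up 9.75 ± 0.351% of the summed FPKM of the 6 subunits in the WT and 7.44 ± 0.0893% in ΔFOXC2 cells (SD, n = 5), and Mcm7 10.2 ± 0.485% and 8.47 ± 0.131%. Mcm3 made up 25.3 ± 0.296% and 28.1 ± 1.25%, and Mcm6 22.4 ± 0.249% and 23.8 ± 0.560%. The groups did not overlap for any of these 4 shares, while those of Mcm2 and Mcm4 did. Set against the mean log2 of the other 5 subunits, however, Mcm2 did not overlap either. That ratio was 0.265 ± 0.0405 in the WT and 0.355 ± 0.0390 in ΔFOXC2 cells (SD, n = 5). By this measure only Mcm4 overlapped. Shares and ratios were not computed for other sets of genes, so these counts have no background. Mcm5 lies on chromosome 8, with a median difference of 0.36, and Mcm3 and Mcm6 on chromosome 1, with one of -0.26. Genes of these 2 chromosomes set against each other would often separate the lines.

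A share depends on the other subunits, so a rise of one lowers the rest. The summed FPKM of the 6 was 431 ± 20.6 in the WT and 417 ± 28.1 in ΔFOXC2 cells and overlapped. There were 0.386 ± 0.0180 Mcm5 transcripts per Mcm3 transcript in the WT, with single libraries from 0.367 to 0.408, and 0.265 ± 0.0121 in ΔFOXC2 cells, from 0.247 to 0.277. The most abundant subunit mRNA was 2.61 ± 0.124 times the least abundant in the WT and 3.78 ± 0.176 times in ΔFOXC2 cells. Levels as measured were thus less even in ΔFOXC2 cells. Mcm3 lies on chromosome 1 and Mcm5 on chromosome 8. With the chromosome medians subtracted, their log2 differences were 0.16 and 0.08. The order Mcm3, Mcm6, Mcm2, Mcm4 held in all 10 libraries, followed by Mcm7 and Mcm5, which changed places in WT replicate 3.

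**Figure D3:**
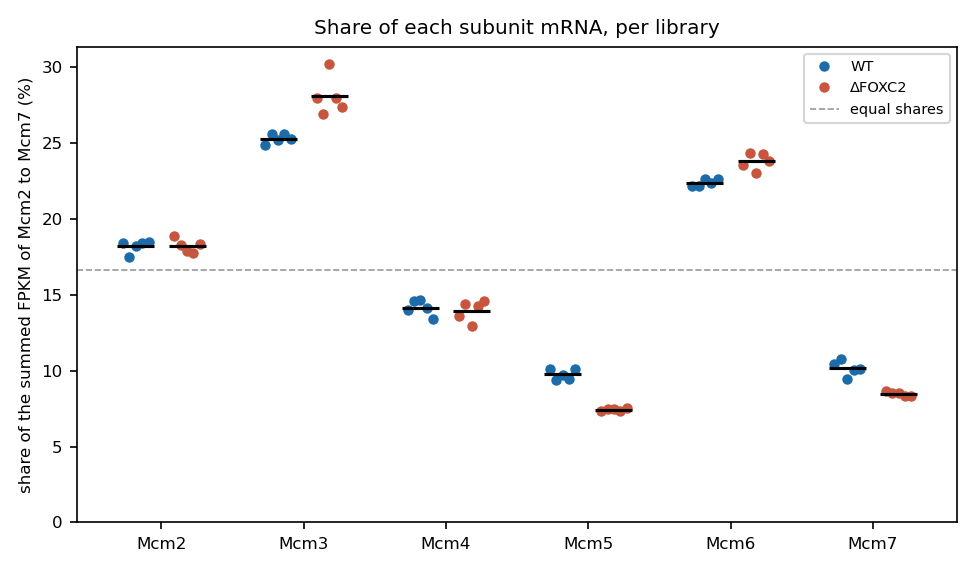
Share of each subunit mRNA in the summed FPKM of Mcm2 to Mcm7 (vertical axis, percent) in each WT (blue) and ΔFOXC2 (red) library, with group means as black bars; the dashed line marks equal shares. The shares of Mcm5 and Mcm7 are higher in the WT, those of Mcm3 and Mcm6 lower.

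Within a group, the 6 subunits lay on the same side of their group means in 4 of 10 libraries (WT replicates 1 and 5, ΔFOXC2 replicates 2 and 4) and on both sides in the other 6. WT replicate 5 was the lowest of its group for 6 of 6 subunits and for Cdc45, with deviations from the group mean of -5.39% for Mcm5 to -13.5% for Mcm4. ΔFOXC2 replicate 4 was the highest of its group for 6 of 6 subunits, Cdc45 and Pcna, from 7.25% above the mean for Mcm2 to 12.7% above it for Cdc45. The lowest value of each subunit among ΔFOXC2 libraries was in replicate 2 (Mcm3, Mcm5 and Mcm7) or replicate 3 (Mcm2, Mcm4 and Mcm6). In ΔFOXC2 replicate 3, Mcm3 deviated by 1.93% and Mcm4 by -12.3%, and in WT replicate 3, Mcm4 by 6.12% and Mcm7 by -4.59%. The subunits thus moved together in some libraries and apart in others. A correlation across libraries is not given, since the 2 lines form separate clusters of 5.

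**Figure D4:**
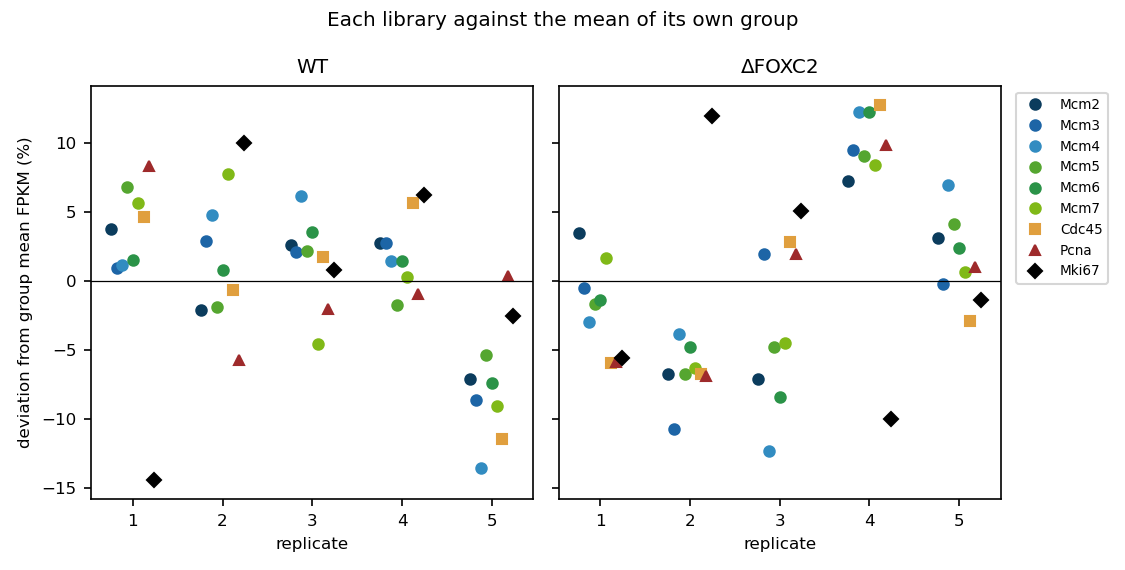
Deviation of each gene from the mean FPKM of its own group (vertical axis, percent) by replicate, for WT (left) and ΔFOXC2 (right). All 6 subunits (circles) are lowest in WT replicate 5 and highest in ΔFOXC2 replicate 4, where Mki67 (black diamonds) is lowest.

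Pcna (ENSMUSG00000027342.14, chromosome 2, 132249162 to 132253314, minus strand), the clamp, rose in the WT. It had 204, 178, 185, 187 and 189 FPKM in the WT and 153, 152, 166, 179 and 164 in ΔFOXC2 libraries. The highest ΔFOXC2 library, replicate 4, passed the lowest WT library, replicate 2, and the other 4 WT libraries were above all of ΔFOXC2. The log2 difference was 0.21 (SE 0.05, 95% interval 0.10 to 0.32, limma adjusted p = 0.00595), still called when any 1 library was left out (0.18 to 0.25) and with the chromosome median subtracted (0.24). Processed copies of the gene are annotated (Pcna-ps1 and Pcna-ps2) and may share reads with it.

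Mki67 (ENSMUSG00000031004.8, chromosome 7, 135689784 to 135716361, minus strand) also rose, with the least firm call of the 4. It had 99.5, 128, 117, 123 and 113 FPKM in the WT and 94.0, 111, 105, 89.6 and 98.2 in ΔFOXC2 libraries. WT replicate 1 lay among the ΔFOXC2 values, and the other 4 WT libraries were above all of them. The log2 difference was 0.22 (SE 0.07, 95% interval 0.06 to 0.38, limma adjusted p = 0.0319). The call was lost without WT replicate 2, 3 or 4 or ΔFOXC2 replicate 1, 4 or 5 (0.19 to 0.22, limma adjusted p = 0.0605 to 0.0759) and with the chromosome median subtracted (0.19, limma adjusted p = 0.0639).

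Mki67 did not follow the helicase genes from library to library. In ΔFOXC2 replicate 4 it deviated by -10.0% from the group mean and was the lowest of the 5 libraries while the other 8 genes were at their highest. In ΔFOXC2 replicate 2 it was 11.9% above the mean and the highest while 5 of the others were at their lowest. In WT replicate 1 it deviated by -14.4%, where Mcm2, Mcm5 and Pcna were at their highest.

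The other helicase parts, the GINS subunits, are mostly encoded on chromosome 8. Gins4 rose in the WT, with 51.9 ± 2.56 against 34.7 ± 2.85 FPKM (log2 0.58, limma adjusted p = 1.295e-05), just under 1.5-fold and without overlap, and Gins2 rose as well, with 10.5 ± 0.753 against 8.24 ± 0.816 (log2 0.36, limma adjusted p = 0.00267). Gins3, also on chromosome 8, had 11.7 ± 0.868 against 10.1 ± 1.17 FPKM (log2 0.22, limma adjusted p = 0.0524). Gins1, on chromosome 2, had 30.4 ± 1.83 against 27.9 ± 1.51 (log2 0.12, limma adjusted p = 0.0798). With the chromosome median subtracted, the log2 differences were 0.22 for Gins4, -0.01 for Gins2, -0.14 for Gins3 and 0.15 for Gins1, with Gins4 and Gins1 called.

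Over 10 lists of replication and proliferation genes, 116 genes were tested, of which 38 rose (32.8%), 12 fell (10.3%) and 66 were not called by limma, with a median of 0.10. Of the 11 on chromosome 8, 9 rose and 0 fell, and of the 5 on chromosome 1, 0 rose and 4 fell. Among all tested genes, 408 of 578 on chromosome 8 rose and 346 of 573 on chromosome 1 fell, so that most genes of these chromosomes were called in the same direction. Off these 2 chromosomes 29 of 100 rose and 8 fell, where 18.9% and 19.4% of all genes off them did. With the chromosome median subtracted, 30 of the 116 rose and 8 fell, where 16.5% and 19.1% of all genes did. At 1.5-fold without subtraction, 1 of the 116 rose and 3 fell, where 3.65% and 4.97% of all genes did.

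**Figure D5:**
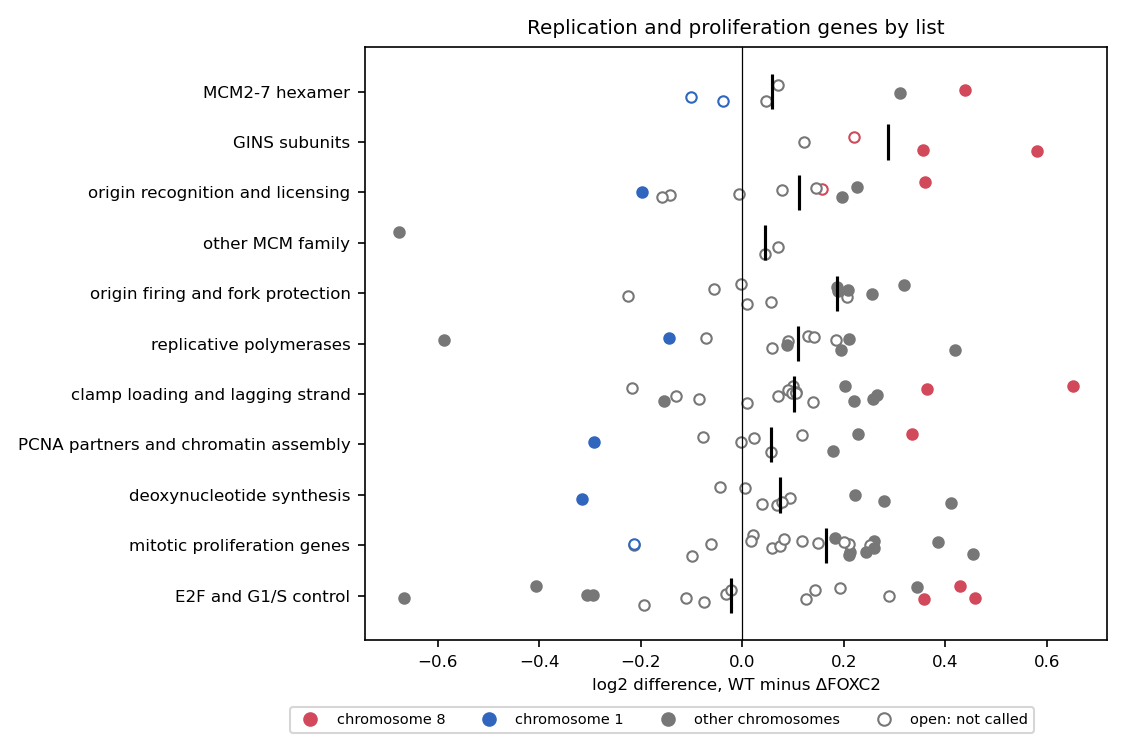
Log2 difference (horizontal axis, WT minus ΔFOXC2) of each tested gene, by list; filled points were called at any fold, open points were not, black bars are list medians, and colour marks genes of chromosomes 8 and 1. Genes of chromosome 8 all lie above 0 and those of chromosome 1 all lie below 0.

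Among 10 genes of origin recognition and licensing, 3 rose and 1 fell. Orc6, of the origin recognition complex, rose (log2 0.36, limma adjusted p = 0.0162; -0.00 after subtraction for chromosome 8), as did Orc5, with 3.95 ± 0.0395 against 3.37 ± 0.179 FPKM (log2 0.23), and Mcmbp, which binds MCM subunits, with 22.7 ± 0.850 against 19.8 ± 1.27 (log2 0.20). Orc2 on chromosome 1 fell, with 42.1 ± 1.66 against 48.3 ± 2.39 FPKM (log2 -0.20), which turned to 0.06 after subtraction and was not called (limma adjusted p = 0.310). Of 3 other MCM family genes, Mcm9, a helicase of recombination repair, fell at 1.46 ± 0.0601 against 2.39 ± 0.223 FPKM (log2 -0.68, limma adjusted p = 5.675e-05), without overlap. Mcm10, which stimulates origin firing, had 21.7 ± 1.31 against 20.6 ± 1.16 (log2 0.07, limma adjusted p = 0.315).

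Of 11 genes of origin firing and fork protection, 5 rose and 0 fell, with a median of 0.19. Dbf4, the activator of the origin-firing kinase, had 19.8 ± 2.19 against 15.9 ± 1.99 FPKM (log2 0.32, and 0.27 after subtraction, limma adjusted p = 0.0512). Mtbp, a partner of Treslin, had 18.2 ± 1.68 against 15.3 ± 1.55 (log2 0.25), and the fork protection factor Tipin 86.2 ± 3.83 against 74.6 ± 2.15 (log2 0.21, no overlap). None of these 3 is on chromosome 1 or 8.

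Of 12 polymerase genes, 4 rose and 2 fell. The polymerase delta subunits went apart: Pold2 rose, with 34.4 ± 3.86 against 25.7 ± 2.60 FPKM (log2 0.42), as did the catalytic Pold1 (log2 0.21, limma adjusted p = 0.0440), and the accessory Pold4 fell, with 6.14 ± 1.13 against 9.26 ± 1.50 (log2 -0.59, past 1.5-fold). Pola1, the catalytic subunit of polymerase alpha, rose (log2 0.19). Prim2, of the primase, on chromosome 1, fell (log2 -0.14), but had 0.11 after subtraction (limma adjusted p = 0.0571). After subtraction 1 of the 12 was called higher and 1 lower, and Pold1 (limma adjusted p = 0.0860) and Pola1 (0.0544) were no longer called.

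Of 18 genes of clamp loading and lagging strand synthesis, 6 rose and 1 fell. Rnaseh2a, which removes RNA primers, on chromosome 8, was the 1 gene of the lists that rose past 1.5-fold, with 5.41 ± 0.277 against 3.41 ± 0.288 FPKM (log2 0.65, and 0.29 after subtraction, limma adjusted p = 0.00707). Chtf8, also on chromosome 8, had 43.1 ± 0.411 against 33.5 ± 1.19 (log2 0.36, 0.00 after subtraction). Rfc5, of the loader of Pcna, rose (log2 0.27), and Chtf18, of the alternative loader that contains Chtf8, fell (log2 -0.16, limma adjusted p = 0.0485). Of 9 partners of Pcna and chromatin assembly genes, 3 rose and 1 fell. Asf1b on chromosome 8 (log2 0.34, -0.03 after subtraction), the maintenance methyltransferase Dnmt1, with 63.5 ± 4.75 against 54.1 ± 1.96 FPKM (log2 0.23), and Chaf1b (log2 0.18, and 0.15 after subtraction, limma adjusted p = 0.0851) rose, and Dtl on chromosome 1, of the ligase that acts on Pcna-bound proteins, fell (log2 -0.29, -0.04 after subtraction).

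Of 10 genes of deoxynucleotide synthesis, 3 rose and 1 fell. Shmt1, which supplies one-carbon units, had 10.6 ± 0.259 against 7.94 ± 0.227 FPKM (log2 0.41, no overlap), the dUTPase Dut 63.2 ± 4.34 against 52.0 ± 3.58 (log2 0.28), and Nme1 60.6 ± 4.54 against 51.8 ± 1.49 (log2 0.22). Dtymk, the thymidylate kinase, on chromosome 1, fell (log2 -0.32, -0.06 after subtraction). Of 22 mitotic proliferation genes, 8 rose and 1 fell, with 18 of 22 above 0 and a median of 0.17. The spindle protein Nusap1 had 34.9 ± 1.14 against 25.8 ± 4.54 FPKM (log2 0.45), the anaphase activator Cdc20 38.9 ± 2.47 against 30.1 ± 5.13 (log2 0.38), and the mitotic cyclin Ccnb1 36.9 ± 2.13 against 30.9 ± 3.08 (log2 0.26). The spindle assembly factor Tpx2 fell, with 75.6 ± 2.23 against 87.9 ± 7.85 (log2 -0.21).

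Regulators of the G1/S transition were divided evenly as measured, with 4 of 17 higher and 4 lower and a median of -0.02. After subtraction of the chromosome median, 1 of the 17 was called higher and 4 lower, where 16.5% and 19.1% of all genes were. The 3 with the largest rise were on chromosome 8: the repressor E2f4 (log2 0.46), the pocket protein Rbl2 (log2 0.43) and the E2F partner Tfdp1 (log2 0.36), which had 0.09, 0.07 and -0.01 after subtraction. E2f5 fell, with 11.5 ± 1.41 against 18.4 ± 1.90 FPKM (log2 -0.67), as did the kinase Cdk2, with 35.3 ± 2.75 against 46.9 ± 4.49 (log2 -0.41), and the pocket protein Rbl1, with 22.01 ± 1.17 against 27.2 ± 1.16 (log2 -0.31). After subtraction E2f5, Cdk2 and Rbl1 had -0.71, -0.30 and -0.28 and were still called.

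The genes whose pattern over the 10 libraries was most like the mean of the 6 subunits were Mcm10, Chaf1a, Dkc1, Srsf3 and Idh3a. Likeness was the root mean square difference between log2 values, each centred on its own mean, over 6833 genes of at least 5 FPKM. It was 0.0373 for Mcm10 and 0.0393 for Idh3a, where the median gene had 0.160 (the smaller, the more alike). Of the subunits themselves Mcm2 had 0.0478 and Mcm5 0.162. Each subunit is part of the mean it is compared with, so its value is not on a par with those of other genes. The 5 genes differed between the lines by 0.07 to 0.16.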

How the data were processed

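Polyadenylated RNA of 10 cultures was sequenced with strand-specific libraries, per the labels' protocols. The deposited table holds FPKM, computed by the authors; the submitters' processing notes name GRCm38 as the build and list StringTie, HISAT2, cutadapt and FastQC without versions. Without counts, the depth of the libraries is unknown. A search for a common step in low FPKM values did not supply it. At most 5 of 699 low genes shared the same ratio in any pair of libraries. Columns named for FOXC2 were taken as ΔFOXC2, whose titles alone carry that name. The 165 genes with a mean under 0.5 FPKM were left out. Differences were tested on log2(FPKM + 0.1) with limma 3.58.1 in R 4.3.3 (moderated variances following mean expression, no covariates, two-sided), Benjamini-Hochberg adjusted over 10570 genes, after a test on simulated data. In the simulated data, with 200 of 10570 genes changed, 46% of 1.2-fold and 80% of 1.5-fold changes were recovered. In the measured data 4392 genes were called, and with more genes called the adjusted threshold is easier to reach. The simulated rates therefore do not give the sensitivity for the 9 genes. A gene not called may still differ by a small fold, and for the 9 genes the intervals show how large. Alternatives were other pseudocounts, filters, scalings and variance models, a replicate block, each library left out, chromosome medians subtracted and an exact permutation test. The 9 genes and all gene lists were chosen with earlier results of these data known. Named from each list were up to 3 called genes per direction with the largest difference, all GINS subunits, and the most abundant gene where fewer than 2 were called; neighbours, overlapping genes and markers were added. Coordinates are those of the deposited table.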

Additional observations from a re-analysis of the deposited data

Results flagged for a closer look

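WT replicate 5 stood apart from the other 4 WT libraries for 3 subunits, with 99.7 FPKM for Mcm3, 52.9 for Mcm4 and 89.45 for Mcm6, each separated from the next library by more than 0.71 of the group's range, Dixon's critical value. Chance flags about 1 in 20 groups, and 18 groups of 5 were examined, of which these 3 share 1 library. Without it the log2 differences were -0.07 for Mcm3, 0.12 for Mcm4 and -0.01 for Mcm6, none called by limma.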

How the results depend on the processing

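No gene of the 9 changed its call under pseudocounts of 1 or 0.01, other filters, scalings or variance models, or when replicate numbers entered the fit as a block. With the chromosome median subtracted, Mcm5 (0.0755) and Mki67 (0.192) were no longer called, Mcm3 (0.157) and Mcm6 (0.219) reversed and were called higher, and the span of the 6 subunits was 0.249. The span under all alternatives was added after seeing the data. Leaving out single libraries gave -0.141 to -0.0671 for Mcm3, -0.0687 to 0.0044 for Mcm6, reversed without ΔFOXC2 replicate 4, and 0.185 to 0.277 for Mki67. The exact permutation test on FPKM (two-sided, 252 regroupings, smallest possible p = 0.00794) gave p = 0.00794 for Mcm5 and Mcm7, p = 0.0159 for Pcna and p = 0.0317 for Mki67. Genes called at 1.5-fold numbered 911, and 568 with a pseudocount of 1 or 340 with a filter at 5 FPKM, which tests fewer genes. With the replicate block, 916 genes were called at 1.5-fold and 4252 at any fold, against 4392 without it. Deviations of libraries with the same number had correlations across genes of -0.121 to 0.137, not every library was most like its own number, and the numbers were not taken as pairs. The list genes that rose numbered 30 to 43 under all alternatives. Depth is unknown, so counting error cannot be given.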
